A study of Mus musculus with 84 samples.

Results

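Adenosine reception, transport and metabolism were described in mouse ventrolateral striatum through 6 genes: Adora1, the adenosine A1 receptor; Slc29a1 and Slc29a2, the equilibrative nucleoside transporters; Nt5e, the ecto-5'-nucleotidase; and Adk and Ada, adenosine kinase and adenosine deaminase. They were chosen by gene symbol, as 6 of the 43629 genes counted. The rule names genes and uses no measured value, but it was written with earlier results of these data known. The data are bulk RNA sequencing of 84 mice, 44 labelled High Drinker (21 females and 23 males) and 40 labelled Low Drinker (18 females and 22 males). They come from the SOT and NOT selection lines at selection generation 4, lines bred for the paired traits of ethanol preference and ethanol withdrawal. Every mouse was a naive adult that had received no treatment. The labels used here do not give strain background, exact age or family, so littermates cannot be recognised and p-values measure the spread between these animals.

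Library totals were between 22190363 and 41300401 counted reads in High Drinker mice and between 27561410 and 35941404 in Low Drinker mice. The sample numbers at the ends of the titles form 3 sets of 48, 30 and 6 libraries, which hold 30, 11 and 3 High Drinker and 18, 19 and 3 Low Drinker libraries. What a set stands for is not stated, and set was therefore a term in the fits reported here over all libraries, unless a fit without it is named. Low Drinker libraries 8 and 34 stood apart, with median correlations to the other libraries of 0.956 and 0.959 against a limit of 0.960. All 10 medium spiny neuron markers were above a count of 0 in all 84 libraries. Their summed level was between 645 and 12570 CPM (read counts scaled to a common library size, per 1000000) in High Drinker mice and between 401 and 10523 CPM in Low Drinker mice. All 8 cortical glutamatergic markers were also above 0 in every library, with summed levels of 300.2 to 3046 CPM in High Drinker mice and 517 to 3530 CPM in Low Drinker mice. The hand-dissected pieces thus ranged widely in these striatal and cortical transcripts.

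Adenosine is both a breakdown product of ATP and a signal. Outside cells, a chain of ectonucleotidases ending with Nt5e cuts adenine nucleotides down to adenosine, which acts on G-protein-coupled receptors. The A1 receptor couples to Gi and Go, lowers cyclic AMP and restrains glutamate release onto striatal neurons, while the other main striatal receptor, Adora2a, raises cyclic AMP in indirect-pathway medium spiny neurons. Equilibrative transporters let adenosine pass down its gradient in either direction, and inside the cell Adk returns it to AMP or Ada converts it to inosine. Slc29a1 is the transporter whose adenosine uptake acute ethanol inhibits, and mice that lack it are known to drink more ethanol.

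The promoters of 3 members are shown to set side by side genes that varied in opposite directions: Slc29a1 varied with striatal markers, as did Nt5e, whose promoter is not shown, and Adora1 and Adk varied the other way. Each run is the 250 bases before 1 RefSeq transcript start of the GRCm38.p6 assembly, read 5′ to 3′ on the gene's own strand. RefSeq gives 8 starts for Slc29a1, 2 for Adora1 and 2 for Adk, and the start nearest the gene's 5′ end was taken. Windows of the other starts are not described here. The window of Slc29a1 is chr17:45599619-45599868 on the minus strand, that of Adora1 is chr1:134235458-134235707 on the minus strand, and that of Adk is chr14:21052324-21052573 on the plus strand. Capitals mark GC boxes, the letters GGGCGG read on either strand.
Slc29a1: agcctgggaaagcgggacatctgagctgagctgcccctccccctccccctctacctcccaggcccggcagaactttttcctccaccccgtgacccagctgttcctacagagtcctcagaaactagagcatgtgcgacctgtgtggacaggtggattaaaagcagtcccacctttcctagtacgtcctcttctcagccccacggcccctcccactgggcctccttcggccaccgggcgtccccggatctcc
Adora1: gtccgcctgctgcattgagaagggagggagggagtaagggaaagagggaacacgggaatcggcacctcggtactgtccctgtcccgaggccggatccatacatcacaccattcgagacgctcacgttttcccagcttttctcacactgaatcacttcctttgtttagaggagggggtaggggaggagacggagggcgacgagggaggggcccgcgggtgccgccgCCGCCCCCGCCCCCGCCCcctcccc
Adk: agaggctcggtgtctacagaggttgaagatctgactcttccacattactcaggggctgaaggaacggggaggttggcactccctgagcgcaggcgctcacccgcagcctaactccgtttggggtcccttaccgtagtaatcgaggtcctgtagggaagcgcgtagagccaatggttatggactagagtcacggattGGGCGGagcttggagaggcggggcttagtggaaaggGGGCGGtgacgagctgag
The Slc29a1 window held no GC box and had a GC content of 62.4%. The Adora1 window held 3 GC boxes end to end near its 3′ end and had a GC content of 64.4%. In the Adk window there were 2 GC boxes and 2 CCAAT boxes (letters CCAAT, either strand), at a GC content of 58.8%. Neither the letters TATAAA nor the cyclic AMP response element TGACGTCA was found in any of the 3 windows on either strand. Of 32851 promoter windows of the same length, 32.7% held a GC box, 33.9% CCAAT, 12.4% TATAAA and 1.55% the cyclic AMP response element. Of the 2 CCAAT boxes of Adk, 1 shares letters with a GC box.

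The receptor gene was the most abundant of the 6 per unit of exon length. Adora1 (ENSMUSG00000042429, chr1:134199223-134235431, minus strand of mm10) averaged 48.6 ± 7.45 CPM per kilobase of exon (SD, n = 84). Adk (ENSMUSG00000039197, chr14:21052574-21448568, plus strand) averaged 23.4 ± 2.78 CPM per kilobase. Slc29a1 (ENSMUSG00000023942, chr17:45585200-45599606, minus strand) followed at 8.48 ± 1.90 and Slc29a2 (ENSMUSG00000024891, chr19:5024006-5031971, plus strand) at 6.75 ± 0.694 CPM per kilobase. Nt5e (ENSMUSG00000032420, chr9:88327197-88372092, plus strand) averaged 1.29 ± 0.769 CPM per kilobase. Ada (ENSMUSG00000017697, chr2:163726584-163750239, minus strand) was the lowest at 0.215 ± 0.0799 CPM per kilobase, from a median of 13 reads a library. Each neighbouring pair in this order lay the same way round in 84 of 84 libraries, except that Slc29a1 was above Slc29a2 in 70 of 84. All 6 genes are protein-coding and each value is the sum over all exons of a gene. Adora1 shares exon bases with Mybph on the opposite strand, a gene with a mean count of 12.7, and Slc29a1 shares 275 with Gm17080, with a mean count of 0.595.

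The 6 genes differed in how much they varied from mouse to mouse. Slc29a2 had a coefficient of variation (CV) of 10.3% over the 84 libraries and Adk one of 11.9%, the narrowest of the 6. Adora1 followed at 15.3% and Slc29a1 at 22.4%. For Ada the CV was 37.1%, where counting alone gives a CV of 27.7% at its median count. Nt5e had a CV of 59.6% and a range of 1.12 to 29.2 CPM, although counting alone gives only 5.50%. Its spread was thus far wider than its read number accounts for. Counting alone gives 1.07% for Adora1, 2.74% for Adk, 3.08% for Slc29a1 and 4.36% for Slc29a2, each below the CV found.

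High Drinker and Low Drinker mice were compared first for the receptor. Adora1 was between 189 and 367 CPM in High Drinker mice, with a median of 277 CPM, and between 178 and 401 CPM in Low Drinker mice, with a median of 283 CPM. The group means were 277 ± 38.4 and 285 ± 47.9 CPM (SD, n = 44 High Drinker and n = 40 Low Drinker). The ranges overlapped almost fully: 19 of 44 High Drinker libraries were above the Low Drinker median, and both the lowest library (Low Drinker 8) and the highest (Low Drinker 21) were Low Drinker mice. The log2 fold change, High Drinker over Low Drinker, was -0.01 (SE 0.05, 95% interval -0.11 to 0.08), with an adjusted p of 0.930 by edgeR's quasi-likelihood test with Benjamini-Hochberg adjustment over 16537 genes. Without libraries 8 and 34 it was -0.03.

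Slc29a1, the ethanol-sensitive transporter, was between 20.5 and 58.3 CPM in High Drinker mice, with a median of 34.4 CPM, and between 19.9 and 50.7 CPM in Low Drinker mice, with a median of 32.4 CPM. High Drinker mice averaged 34.7 ± 7.95 CPM and Low Drinker mice 33.3 ± 7.24 CPM. The highest library was High Drinker 4, the only one above all Low Drinker libraries, and the lowest was Low Drinker 32. Its log2 fold change was 0.05 (SE 0.07, 95% interval -0.09 to 0.18), with an adjusted p of 0.784 in the same edgeR test. The interval thus holds differences of up to 0.18 on the log2 scale in favour of High Drinker mice, and larger ones lie outside it. Slc29a2, the second equilibrative transporter, was between 13.5 and 21.6 CPM (median 16.4) in High Drinker mice and between 13.8 and 21.4 CPM (median 16.7) in Low Drinker mice. Its log2 fold change was -0.02 (SE 0.03, 95% interval -0.08 to 0.04, adjusted p = 0.779, edgeR), the narrowest interval of the 6 genes.

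Nt5e, which makes extracellular adenosine from AMP, was between 1.58 and 29.2 CPM in High Drinker mice, with a median of 10.6 CPM, and between 1.12 and 27.7 CPM in Low Drinker mice, with a median of 10.1 CPM. High Drinker mice averaged 11.5 ± 6.48 CPM and Low Drinker mice 10.1 ± 6.46 CPM. Both groups spanned nearly the whole range, and 23 of 44 High Drinker libraries were above the Low Drinker median. The log2 fold change was 0.09 (SE 0.19, 95% interval -0.29 to 0.47, adjusted p = 0.864, edgeR), the widest interval of the 6. The 10 medium spiny neuron markers, with which Nt5e varied, had a median log2 fold change of 0.17 in the same direction. With their score as a covariate, the Nt5e value was -0.05 (SE 0.08, adjusted p = 0.769, edgeR), the opposite sign. Of the 64 tested markers of all 9 cell type lists, 0 passed by edgeR, DESeq2 or limma-voom (5, 5 and 4 with an unadjusted p under 0.05). In bulk tissue, fewer cells of a type and less RNA per cell cannot be told apart.

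Adk, the enzyme that clears adenosine inside cells, was between 32.3 and 51.1 CPM in High Drinker mice, with a median of 40.5 CPM, and between 33.2 and 52.2 CPM in Low Drinker mice, with a median of 42.2 CPM. High Drinker mice averaged 40.8 ± 4.52 CPM and Low Drinker mice 42.7 ± 5.25 CPM. The log2 fold change was -0.06 (SE 0.04, 95% interval -0.13 to 0.02), with an adjusted p of 0.420 and an unadjusted p of 0.123 by edgeR. It was negative under each of the 14 alternative fits too. The unadjusted p was below 0.05 in males alone (-0.10, p = 0.0355, adjusted p = 0.268) and with 5 surrogate variables (-0.05, p = 0.0377, adjusted p = 0.147, both edgeR). In those fits 2698 of 16408 and 4706 of 16537 tested genes had an unadjusted p under 0.05. For Adk the unadjusted p was 0.552 in females alone, and 0.307 and 0.275 within the first and second sample sets (edgeR). Ada, which deaminates adenosine, was between 0.0633 and 0.794 CPM (median 0.405) in High Drinker mice and between 0.138 and 0.920 CPM (median 0.404) in Low Drinker mice. The log2 difference was -0.005, with an SE of 0.12, a 95% interval of -0.25 to 0.24 and an adjusted p of 0.991 (edgeR), from 2 to 29 reads a library.

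All 6 genes passed the filter on low counts and 0 of them passed the adjusted threshold of 0.05, against 3.94% of the 16537 genes tested. By direction, 1.74% of tested genes were called higher in High Drinker mice and 2.2% lower. The count of members was also 0 with an unadjusted p under 0.05, and 0 by DESeq2 and by limma-voom, adjusted or not, while 18.3% of all tested genes had an unadjusted p under 0.05 in edgeR. The members' log2 fold changes had a median of -0.01 and those of all tested genes one of -0.002. Within the first and second sample sets, the log2 fold change was -0.03 and 0.16 for Slc29a1, -0.10 and 0.34 for Nt5e, -0.05 and 0.05 for Slc29a2, and -0.05 and -0.08 for Adk. Direction thus held in both sets for Adk and Adora1 (-0.01 and -0.04), and turned for the transporters, Nt5e and Ada (0.12 and -0.05).

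**Figure D1:**
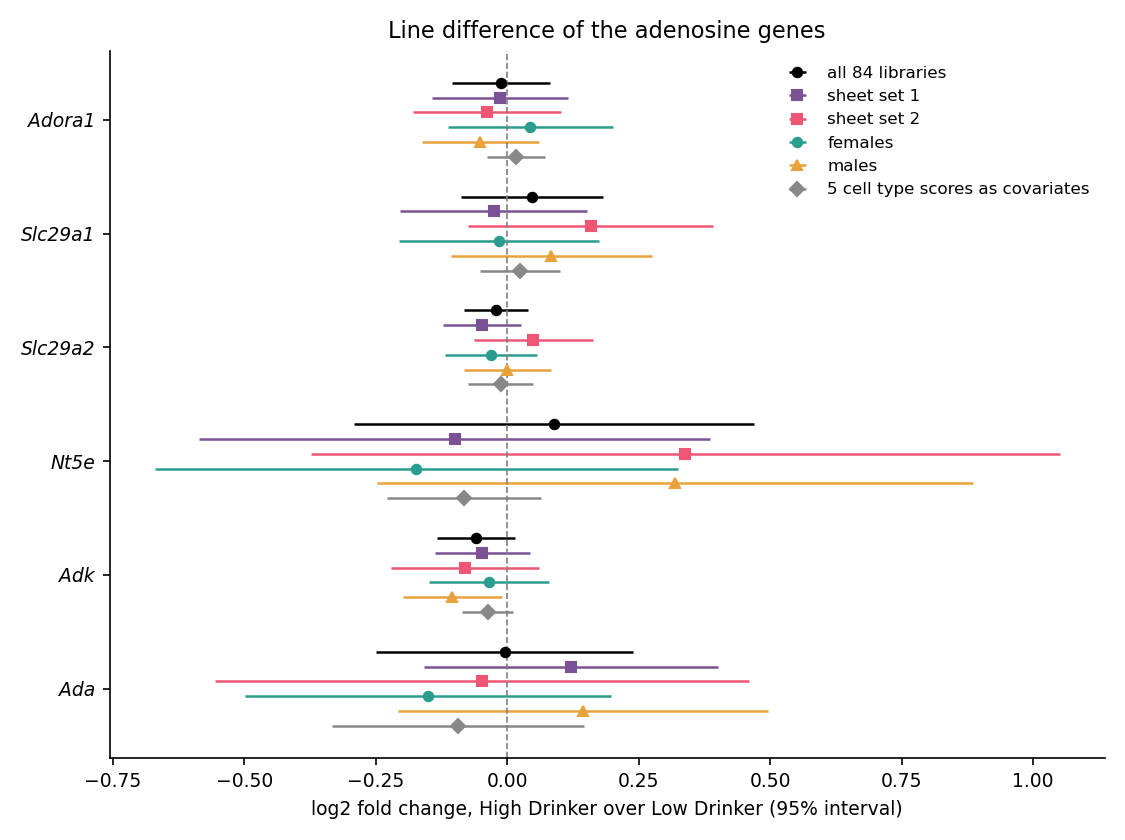
Log2 fold change, High Drinker over Low Drinker, of each gene with its 95% interval over all 84 libraries, within the first and second sample sets (sheet sets 1 and 2), in females, in males, and with 5 cell type scores as covariates. The intervals of the fit over all libraries include 0 for all 6 genes; Slc29a2 has the narrowest and Nt5e the widest.

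Sex was tested in the same fit. None of the 6 genes passed the adjusted threshold for the difference of females over males (0 of 6 with an unadjusted p under 0.05 in edgeR, and 0 of 6 in DESeq2), where 0.0907% of tested genes did. Adk had the lowest unadjusted p among them, 0.0796, at a log2 value of -0.07 with an SE of 0.04 and an adjusted p of 1 (edgeR). Whether the High Drinker over Low Drinker difference itself differed between the sexes was tested with an interaction term. No gene in the table passed (0 of 16537 adjusted in edgeR and 0 in DESeq2; 953 and 1014 at an unadjusted p under 0.05), a share of 0%. Nt5e had the largest interaction of the members, -0.53 on the log2 scale (SE 0.39, unadjusted p = 0.173, adjusted p = 0.779, edgeR). Its log2 fold change was -0.17 (SE 0.25) in females alone and 0.32 (SE 0.29) in males alone. The mean medium spiny neuron score, the average of centred log2 CPM over the 10 markers, moved in the same directions: it was 0.11 in High Drinker and 0.19 in Low Drinker females, and 0.31 in High Drinker and -0.58 in Low Drinker males. Its part in the Nt5e values was not tested.

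The study's design names differential variance, so spread was compared as well, around the median of each group and sex. Nt5e libraries lay on average 0.71 from the median of their group and sex in High Drinker mice and 0.90 in Low Drinker mice, on the log2 CPM scale. For Adora1 this mean deviation was 0.15 in High Drinker and 0.19 in Low Drinker mice, and for Slc29a1 it was 0.26 in High Drinker and 0.25 in Low Drinker mice. The adjusted p was between 0.977 and 0.998 for the 6 genes by limma on absolute deviations, with 0 of 6 at an unadjusted p under 0.05. Over all tested genes 0.0121% passed, and both of those genes were less variable in High Drinker mice.

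Across libraries, in contrast, Nt5e, Slc29a1, Adora1 and Adk varied with the striatal and cortical marker transcripts of the sample. Each member's log2 CPM, after removal of sample set, sex and group, was correlated with the mean of each of 9 marker lists. Of the 54 relations, 23 passed an adjusted p of 0.05 by permutation (100000 resamples, two-sided). The share of all tested genes that pass with these scores was not computed, so this count has no background beside it. Of all tested genes, 26.9% had an r of at least 0.5 in size with Nt5e. How the striatal and cortical scores vary with each other was not tested, so a gene's r with each may not be separate results. Nt5e followed the medium spiny neuron score most closely (Pearson r = 0.93, Spearman rho = 0.90, adjusted p = 4.91e-05, permutation test). The raw p of 1e-05 is the smallest that this number of resamples can give. The r was 0.93 and 0.94 within the first and second sample sets and 0.53 within the third, which has 6 libraries. It was 0.93 in High Drinker mice, 0.93 in Low Drinker mice, and 0.93 without the 2 libraries farthest from the median score. The 5 libraries with the lowest medium spiny neuron scores had 1.58 CPM of Nt5e in High Drinker 43, and 2.07, 1.12, 1.93 and 2.37 CPM in Low Drinker 32, 33, 34 and 35. The library with the highest score, High Drinker 4, had 29.2 CPM, the highest Nt5e of all. Low Drinker 34 is 1 of the 2 libraries that stood apart.

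Slc29a1 varied in the same direction (r = 0.79, rho = 0.78; 0.87, 0.77 and -0.67 within the 3 sets; 0.79 without 2 libraries; raw p = 1e-05, adjusted p = 4.91e-05, permutation test). Against the cortical glutamatergic score its r was -0.82 (rho -0.82; -0.84, -0.85 and -0.19 within the 3 sets; -0.83 without the 2 libraries farthest from the median score). That of Nt5e was also -0.82 (rho -0.86; -0.79, -0.92 and -0.77 within the sets; -0.86 without 2 libraries). Libraries rich in striatal neuron transcripts and poor in cortical ones thus had more Slc29a1 and more Nt5e. High Drinker 4, the highest library for Slc29a1 at 58.3 CPM, also had the highest striatal score, and Low Drinker 32, the lowest at 19.9 CPM, had the lowest.

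Adora1 and Adk went the other way. Adora1 had an r of 0.74 with the cortical score (rho 0.71; 0.77, 0.71 and 0.62 within the 3 sets) and of -0.45 with the medium spiny neuron score (rho -0.51; -0.54, -0.44 and 0.20 within the sets). Adk had an r of 0.65 with the cortical score (rho 0.70; 0.67, 0.69 and 0.38 within the sets) and of -0.66 with the medium spiny neuron score (rho -0.69; -0.66, -0.66 and -0.96 within the sets). Without the 2 farthest libraries these 4 r were 0.71 and -0.51 for Adora1 and 0.63 and -0.66 for Adk, cortical score first. Adk is known as an enzyme of astrocytes in the adult brain, and its r with the astrocyte score passed the threshold (r = 0.34, rho = 0.36, adjusted p = 0.00612, permutation test). Of the other members, only Slc29a1 passed with that score, by rho alone (rho -0.26, adjusted p = 0.039; r = -0.22, adjusted p = 0.0795). The r of Adk was uneven, at 0.55 within the first set and 0.006 within the second, and 0.40 without 2 libraries. Adk had a stronger relation with the score of ependyma and choroid plexus (r = -0.50, rho = -0.57, adjusted p = 4.91e-05, permutation test; -0.44, -0.62 and -0.27 within the 3 sets; -0.48 without 2 libraries). Other members passed with that score too: Nt5e (r = 0.48), Slc29a1 (r = 0.38), Adora1 (r = -0.35) and Ada (r = 0.28). Of the 6 markers listed for it 4 were tested, and 3 of the 6 had a count of 0 in at least 1 library. Adora1 also had an r of -0.45 with the mural cell score (rho -0.45, adjusted p = 9e-05, permutation test). That r was -0.47 and -0.59 within the first and second sets. Nt5e and Slc29a1 had r of 0.52 and 0.53 with the microglial score (rho 0.55 and 0.50, adjusted p = 4.91e-05 for each, permutation tests), at 0.61 and 0.56 within the first set and 0.42 and 0.52 within the second.

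**Figure D2:**
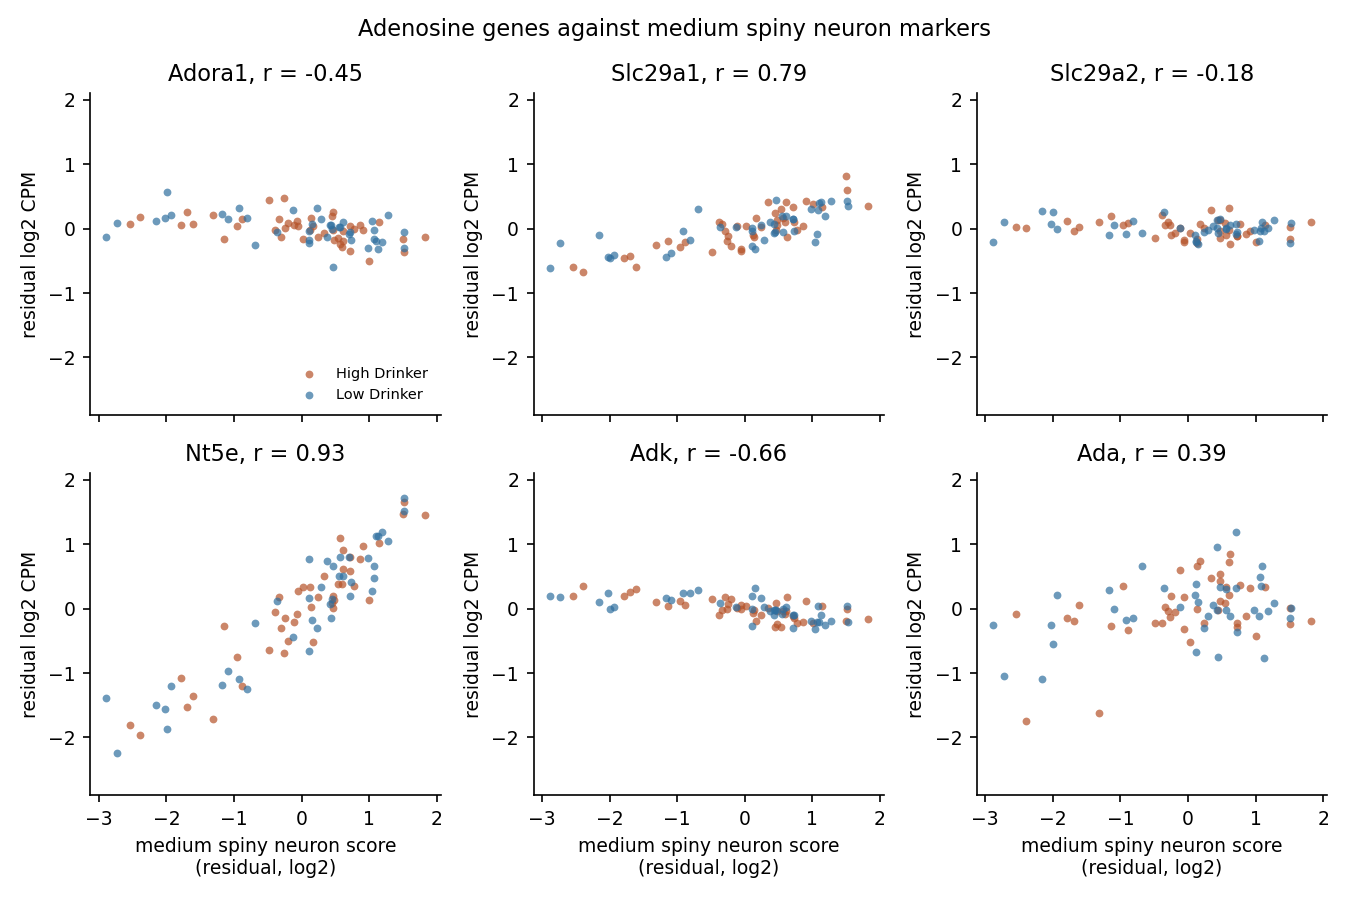
Residual log2 CPM of the 6 genes against the medium spiny neuron score, 1 point per library, after removal of sample set, sex and group; colours mark High Drinker and Low Drinker mice. Nt5e (r = 0.93) and Slc29a1 (r = 0.79) run upward, Adk (r = -0.66) and Adora1 (r = -0.45) downward, with both groups along the same bands.

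Slc29a2 and Ada were less tied to these scores. For Slc29a2 none of the 9 lists passed (0 of 9 adjusted, with 1 of 9, mural cells, at an unadjusted permutation p of 0.0348), and the r with the medium spiny neuron score was -0.18 (rho -0.15, adjusted p = 0.161). Ada had an r of 0.39 with that score (rho 0.26, adjusted p = 0.001, permutation test), 0.27 within the first set and 0.55 within the second. The medium spiny neuron score took 87.4% of the variance of Nt5e in log2 CPM, 61.7% of that of Slc29a1, 42.4% for Adk, 27.9% for Adora1 and 9.12% for Slc29a2. With 5 cell type scores together the share was 74.0% for Adora1 and 73.6% for Slc29a1. The group label, in comparison, took 3.77% for Adk, 3.01% for Slc29a2, 2.25% for Nt5e and under 1% for the others. The sample set took 19.6% for Nt5e, 17.6% for Slc29a2, 15.1% for Adora1, 9.58% for Slc29a1, 6.19% for Ada and 1.09% for Adk. For Slc29a2 that is more than the medium spiny neuron score or the 5 scores together (12.1%) took. Library totals did not pass as a relation for any member (adjusted permutation p of 0.118 or more), but the number of genes detected did for Adora1 (r = -0.45, rho = -0.43, adjusted p = 0.00024; -0.50 and -0.26 within the first and second sets). It also did for Ada (r = 0.29, rho = 0.32, adjusted p = 0.04; 0.18 and 0.41 within these sets) and Adk (r = -0.28, rho = -0.32, adjusted p = 0.0419; -0.28 and -0.47), all by permutation.

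Pairs of members varied in the same or in opposite directions over the 84 libraries, where an r of 0.3 or more in size was common among all tested genes. It was reached by 45.6% of them with Adora1, 50.9% with Slc29a1, 43.8% with Adk and 50.7% with Nt5e. With Slc29a2 31.8% reached it, and with Ada 13.1%. The test of pairs passed an r as small as -0.25, under the 0.3 of these shares, so its count has no share at the same limit. Of the 15 pairs, 9 passed an adjusted p of 0.05 for Pearson's r and 8 for Spearman's rho (permutation tests, 100000 resamples). The strongest was Slc29a1 with Nt5e, the transporter and the enzyme of extracellular adenosine formation (r = 0.80, rho = 0.78; 0.82 and 0.81 within the first and second sets and 0.09 within the third; 0.79 without the 2 farthest libraries). Negative relations linked Nt5e with Adk (r = -0.61, rho = -0.62) and with Adora1 (r = -0.57, rho = -0.61), and Slc29a1 with Adk (r = -0.58, rho = -0.59) and with Adora1 (r = -0.55, rho = -0.57). These 5 pairs had the smallest raw p that the permutations can give, 1e-05, and an adjusted p of 3e-05. Adora1 and Adk varied together (r = 0.37, rho = 0.44, adjusted p = 0.000943). Ada had weaker relations with Nt5e (r = 0.41, rho = 0.30, adjusted p = 0.00015), Slc29a1 (r = 0.29, rho = 0.29, adjusted p = 0.0121) and Adk (r = -0.25, rho = -0.22, adjusted p = 0.032), and the one with Adk did not pass by rho (adjusted p = 0.0699). These pairs share libraries and their cell makeup.

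With the medium spiny neuron score removed, 5 pairs passed. Of the 9 above, 3 were among them: Adora1 with Nt5e at -0.46 (rho -0.48, adjusted p = 0.00015), Adora1 with Slc29a1 at -0.36 (rho -0.31, adjusted p = 0.0042) and Slc29a1 with Nt5e at 0.30 (rho 0.30, adjusted p = 0.0176). Adk with Nt5e, at 0.009, and Slc29a1 with Adk, at -0.11, no longer passed. The other two that passed involve Slc29a2, which had an r of -0.27 with Adk (rho -0.27, adjusted p = 0.0393) and also passed with Slc29a1. The 2 transporter genes, Slc29a1 and Slc29a2, had an r of 0.14 before (rho 0.16, adjusted p = 0.249; -0.09 and 0.44 within the first and second sets). It was 0.48 with that score removed (rho 0.45, adjusted p = 0.00015; 0.46 and 0.56 within these sets). With 5 cell type scores removed it was 0.53 (rho 0.50, adjusted p = 0.00015; 0.53 and 0.56 within the sets; 0.48 without the 2 farthest libraries), the strongest of 3 pairs that then passed. The others passed by r alone, each with an adjusted p of 0.0471 (permutation tests). They were Adora1 with Nt5e (r = -0.29, rho -0.22 with an adjusted p of 0.175) and Slc29a1 with Nt5e (r = 0.28, rho 0.27 with an adjusted p of 0.0798). In that last setting the r of Slc29a1 with Slc29a2 was 0.64 among High Drinker mice and 0.37 among Low Drinker mice. That difference did not pass (p = 0.113, adjusted p = 0.850, permutation of group labels).

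The design also names differential wiring, and the r of each pair was therefore compared between the groups. With no cell type score removed, Slc29a1 with Adk had the largest difference, with r of -0.68 in High Drinker mice and -0.46 in Low Drinker mice (p = 0.135, adjusted p = 0.996, permutation of group labels within sex and set). None of the 15 differences passed, and 0 of 15 had an unadjusted p under 0.05. Adk with Nt5e differed more once scores were removed: r was 0.22 in High Drinker mice and -0.17 in Low Drinker mice with the medium spiny neuron score removed (p = 0.066, adjusted p = 0.925), and 0.39 in High Drinker mice and 0.02 in Low Drinker mice with 5 scores removed (p = 0.064, adjusted p = 0.850, permutation tests). Slc29a1 with Nt5e had r of 0.83 in High Drinker mice and 0.79 in Low Drinker mice.

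The genes whose pattern was most like each member's were ranked by r of residual log2 CPM over the 84 libraries, among 13305 named genes with a mean of at least 1 CPM (13306 for Ada). Nt5e was nearest to Gnal (r = 0.95), the Golf alpha subunit of striatal neurons, followed by Zfp503, Tacr1, Ankrd63 and Klhl13 (0.94 each). Slc29a1 was nearest to Xrcc3, a recombination repair gene (r = 0.89), then Shb, Ccm2, Cacng4 and Ankrd13a (0.87 to 0.86). Adora1 was nearest to Ank (r = 0.85), then Slc25a44, Diras2, Nptx1, a secreted neuronal pentraxin, and Prickle1 (0.84 to 0.82). Adk had Bend6 (r = 0.85), Nudt4, Tstd3, Snrpn and Sparcl1 (0.81 to 0.80). Slc29a2 reached only 0.74, with Vars, the valyl-tRNA synthetase, followed by Tepsin, Atad3a, Ccdc86 and Pofut2. For Ada the nearest was Egfem1 at 0.56. An r of at least 0.5 in size was common for some members and rare for others: 26.9% of tested genes had it with Nt5e, 25.8% with Slc29a1, 18.5% with Adk, 16.2% with Adora1, 7.12% with Slc29a2 and 0.145% with Ada.

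Of 47 further genes of adenosine signalling and turnover, 45 were in the table, 38 were tested, 0 were higher and 1 was lower in High Drinker mice (7 with an unadjusted p under 0.05 by edgeR), where 3.94% of all tested genes passed and 18.3% had an unadjusted p under 0.05. DESeq2 and limma-voom gave the same counts of 0 and 1. Their median log2 fold change was 0.01, with 21 above 0 and 17 below. The lower gene was Nt5c, a cytosolic deoxyribonucleotidase that also cuts nucleoside monophosphates inside cells, at 23.6 ± 3.25 CPM in High Drinker mice and 27.8 ± 5.85 CPM in Low Drinker mice (log2 fold change -0.22, SE 0.05, adjusted p = 0.0091, edgeR). Its log2 fold change was negative in all 14 alternative fits, but the call was lost in females alone (-0.17, adjusted p = 0.551), in males alone (-0.24, adjusted p = 0.0919), within the first set (-0.24, adjusted p = 0.0817), within the second (-0.17, adjusted p = 0.876), and with 5 cell type scores as covariates (-0.16, adjusted p = 0.0588). Of the 5 tested genes of intracellular AMP hydrolysis, 4 had log2 fold changes below 0 and 1 above. The latter was Nt5c1a, at 0.32 (SE 0.12, unadjusted p = 0.00841, adjusted p = 0.114, edgeR). Adora2a was the most abundant of the list per exon length, at 68.0 CPM per kilobase. It averaged 182 ± 120 CPM in High Drinker mice and 162 ± 120 CPM in Low Drinker mice (log2 fold change 0.09, SE 0.26, adjusted p = 0.904, edgeR).

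By role, the most abundant genes per kilobase included Enpp2, a secreted phosphodiesterase, at 59.8 CPM per kilobase, and Ahcyl1 at 55.9. Among transporters Slc29a4, a monoamine and adenosine transporter of the plasma membrane, was highest at 3.30 CPM per kilobase, below both Slc29a1 and Slc29a2. Among the 8 adenylate kinases, which interconvert adenine nucleotides, Ak5 was highest at 49.0 CPM per kilobase. Of those 8, 7 had log2 fold changes below 0 and 4 an unadjusted p under 0.05, with 0 past the adjusted threshold by edgeR, DESeq2 or limma-voom. Of all 16537 tested genes, 8404 were below 0 and 18.3% had an unadjusted p under 0.05. Ak6 came closest at -0.11 (adjusted p = 0.0966, edgeR). Entpd3 was the highest of the ectonucleoside triphosphate diphosphohydrolases at 4.39 CPM per kilobase, above Nt5e, and had a log2 fold change of 0.12 (adjusted p = 0.660, edgeR). Adal led the deamination genes at 4.30 CPM per kilobase, while Panx2 led the ATP release genes and Ampd2 the AMP deaminases. Of the 14 genes by which Gi- and Go-coupled receptors act, 0 passed in either direction by edgeR, DESeq2 or limma-voom (2 with an unadjusted p under 0.05), with a median log2 fold change of 0.04. Gnao1, the Go alpha subunit, was at 798 ± 55.5 CPM in High Drinker mice and 767 ± 52.8 CPM in Low Drinker mice (log2 fold change 0.06, SE 0.02, adjusted p = 0.173, edgeR). Adcy5, the striatal adenylyl cyclase, is also 1 of the medium spiny neuron markers.

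The chromosomal surroundings of the members were set beside these values. Within 1000000 bases of Adora1, 2 of 34 tested genes passed the threshold that 3.94% of all tested genes passed, the nearest of them Chil1 at 9042 bases, with a log2 fold change of -0.32 (adjusted p = 0.000233, edgeR). Around Nt5e 4 of 14 did, the nearest being Zfp949 at 175928 bases (log2 fold change -0.52, adjusted p = 0.000471, edgeR). Around Slc29a2 the count was 4 of 88 and around Adk 1 of 33, beside the same 3.94%. Slc29a1 and Ada had their nearest such gene farther off: Mrps10 at 1769281 bases from Slc29a1 (log2 fold change -0.10, adjusted p = 0.0408) and Cnbd2 at 7350946 bases from Ada (-0.22, adjusted p = 0.00268, both edgeR).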

How the data were processed

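The deposited values are raw counts of reads per gene, with 1 column for each of 84 mice. Per the labels' protocols, RNA from hand-dissected ventrolateral striatum was isolated with Trizol, amplified to cDNA and sequenced as single-end reads of 100 bp, without molecular identifiers, so duplicates of amplification are counted as reads. The submitters' processing notes name STAR, Subread's featureCounts, FastQC and edgeR, and build mm10. No source used here gives tool versions, or whether counting used strand or multi-mapped reads. No entry lacked a gene name (a share of 0%), and 12117 genes had a count of 0 in every library. Symbols came from the GENCODE annotation for 42462 of 43629 identifiers. Library sex by sex-linked genes matched the label in 84 of 84 libraries, and 0 of 3486 library pairs were identical.

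From the deposited counts, genes were filtered on expression, scaled by TMM and fitted with edgeR 4.0.16 (R 4.3.3) by the quasi-likelihood test, with group, sex and sample set as terms, on all 84 libraries and 16537 genes. P-values were adjusted by Benjamini-Hochberg over all of them, with a threshold of 0.05. Standard errors are the log2 fold change divided by the square root of F, and intervals are 1.96 SE. Levels are CPM with TMM scaling. For correlations and spread, log2 CPM with a prior count of 2 was used, computed from the deposited counts. Other fits used DESeq2 1.42.0, limma 3.58.1 and sva 3.50.0; permutations used numpy 2.4.6 and scipy 1.17.1. Fits and correlations were tested on simulated data first. Promoter windows are RefSeq's, GRCm38.p6; all 6 members matched.

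Sets were read from repeats of the sample numbers in the titles. The members and the gene and marker lists were chosen with earlier results of these data known. Named genes were the 6 members, listed genes past the threshold or highest per kilobase in their role, and the 5 genes nearest each member by r. Outside that rule, Nt5c1a, Entpd3, Ak6, Gnao1, Adcy5, Mybph, Gm17080 and the neighbouring genes were named after their values were seen. Read number limits Ada (median of 13 reads).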

Additional observations from a re-analysis of the deposited data

How the results depend on the processing

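The 6 members gave 0 calls in each of the 14 alternative fits of the High Drinker over Low Drinker difference, while the count over all genes depended on the libraries and covariates. It was 77 in the first sample set alone, 74 in the second, 35 in females, 107 in males, 419 without the libraries that stand apart, 986 with the medium spiny neuron score as a covariate and 2221 with 5 surrogate variables, against 651 as reported; RLE scaling, no filter, no set term, leaving out set 3, 5 cell type scores, DESeq2 and limma-voom stayed within 1.5 times. Signs of uncalled members turned. Adora1 was 0.0439 in females, 0.00907 with the medium spiny neuron score and 0.0164 with 5 scores. Slc29a1 was -0.0263 in the first set, -0.0154 in females and -0.0138 with the medium spiny neuron score, and Slc29a2 was 0.0494 in the second set. Ada was 0.00972 with no set term, 0.12 in the first set, 0.0598 without set 3 and 0.144 in males. Nt5e was -0.0999 in the first set, -0.173 in females, -0.0486 with the medium spiny neuron score and -0.0825 with 5 scores. For females over males, the count was 34 with no filter, Adora1 was 0.00276 and Nt5e -0.0405 without the libraries that stand apart, and Ada was 0.0328 with no set term; the Slc29a2 interaction was 0.0263 with no set term. The spread count was 5 with a prior count of 0.5 and 0 without the libraries that stand apart (limma, 570 at an unadjusted p under 0.05).

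Pairs past the threshold by Pearson's r numbered 5 with the medium spiny neuron score removed and 3 with 5 scores removed. With the one score removed, r turned to -0.0133 for Adora1 with Slc29a2, -0.0176 for Slc29a1 with Ada, 0.0199 for Slc29a2 with Ada, 0.0121 for Slc29a2 with Nt5e, 0.000919 for Adk with Ada and 0.00879 for Adk with Nt5e. With 5 removed it turned to -0.232 for Adora1 with Adk, 0.014 for Slc29a1 with Adk, 0.0503 for Slc29a2 with Ada, 0.00808 for Slc29a2 with Nt5e and 0.194 for Adk with Nt5e. The causes of these turns were not tested. Levels under RLE and without the libraries that stand apart moved by less than 1 SD, and of 54 marker relations 21 to 23 passed; these checks were chosen after seeing the data. No paired analysis was possible because the labels give no pairing between the mice of the 2 groups. The library numbers used here count the samples of each group in listed order and pair no mice. Depth limits Ada, at 2 to 29 reads a library.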
